A study of Owenia fusiformis with 14 samples.

Results

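The genes described here are the bone morphogenetic protein (BMP) receptors *bmpr1* (OFUSG18180.1) and *bmpr2* (OFUSG26337.1) and the effector *smad1/5/8* (OFUSG02732.1) of the annelid *Owenia fusiformis*. They were chosen by name, as the receptor and effector genes that the study pairs with transcript identifiers, together with any other transcript of the same genes. No other transcript was listed, so the set comprised 3 transcripts of 3 genes, out of the 31977 transcripts of 27040 genes listed for all libraries. The files carry identifiers only, none of which was found in the RefSeq gene table, so the names rest on the study.

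BMP ligands act by bringing together type II and type I receptors, which are serine/threonine kinases of the cell membrane. The type II receptor (*bmpr2*) phosphorylates the type I receptor (*bmpr1*), which in turn phosphorylates SMAD1/5/8, and the phosphorylated effector enters the nucleus with SMAD4 and binds target genes. In bilaterian embryos the pathway is best known for patterning the dorsoventral axis, and Activin and Nodal ligands use related receptors but signal through SMAD2/3.

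The study treated whole embryos and collected bulk mRNA at the blastula stage, 6 hours post fertilisation (hpf), giving 14 libraries in 7 conditions with 2 replicates each. Embryos received 20 µM DMH1, a BMP receptor inhibitor, or its solvent control 0.2% DMSO from 4 to 6 hpf. In the same window other embryos received recombinant zebrafish BMP4 (rBMP4), recombinant Activin A (rActivin A) or a mock treatment shared by both ligands. The study's methods give the doses as 1000 ng/µl rBMP4 and 75 ng/µl rActivin A. Its supplementary scoring of embryos gives the same figures in ng/ml, and which unit holds is not settled here. The remaining embryos received 40 µM SB431542, an inhibitor of Activin/Nodal receptors that some labels spell SB435421, or its control 0.4% DMSO, here from 3 to 6 hpf. The study's methods describe treatment solutions made up in artificial seawater and name no other treatment of these embryos. The labels do not say that replicates were separate cultures, so p-values measure only the spread between these libraries. Whole embryos were used and no cell type can be checked, and in bulk RNA fewer expressing cells and less RNA per cell cannot be told apart.

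Library totals ran from 9416790 to 59916462 estimated counts. DMH1 libraries were on average 2.638 times as deep as 0.2% DMSO libraries, and their transcript list differed slightly. rActivin A libraries had 0.536 times the mean total of mock libraries. rActivin A replicate 2 was the smallest library, with a fragment length, as the effective lengths give it, of 313.5 bases against 348.8 to 371.7 bases in the other 13. With every library thinned to the smallest depth, the log2 fold change of *bmpr2* was −0.53 with DMH1, 0.62 with rBMP4 and 0.46 with rActivin A, close to the values below. With effective lengths as offsets it was again 0.46 with rActivin A. All fits used transcripts listed for every library, and the others held at most 0.00365% of any library's counts. The part of the transcript list was not tested.

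Transcripts of all 3 genes were detected in every library, and their levels per unit length were clearly separated. In TPM, which scales each transcript's reads by its length and by the library total, *smad1/5/8* lay between 163 and 340 (median 229), *bmpr1* between 44.7 and 89.3 (median 67.2) and *bmpr2* between 6.55 and 22.3 (median 11.4) over the 14 libraries. The order *smad1/5/8*, *bmpr1*, *bmpr2* held in every library. Among the transcripts with counts in a library, *smad1/5/8* stood at the 97.3rd to 98.6th percentile of TPM. On the same scale *bmpr1* stood at the 88.6th to 93.7th and *bmpr2* at the 63.8th to 77.4th. Between 22561 and 27654 transcripts had counts, so the set ranked differs between libraries. Each value rested on at least 634 counts, so the counting error was at most 3.97% (Poisson, counting error only).

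**Figure D1:**
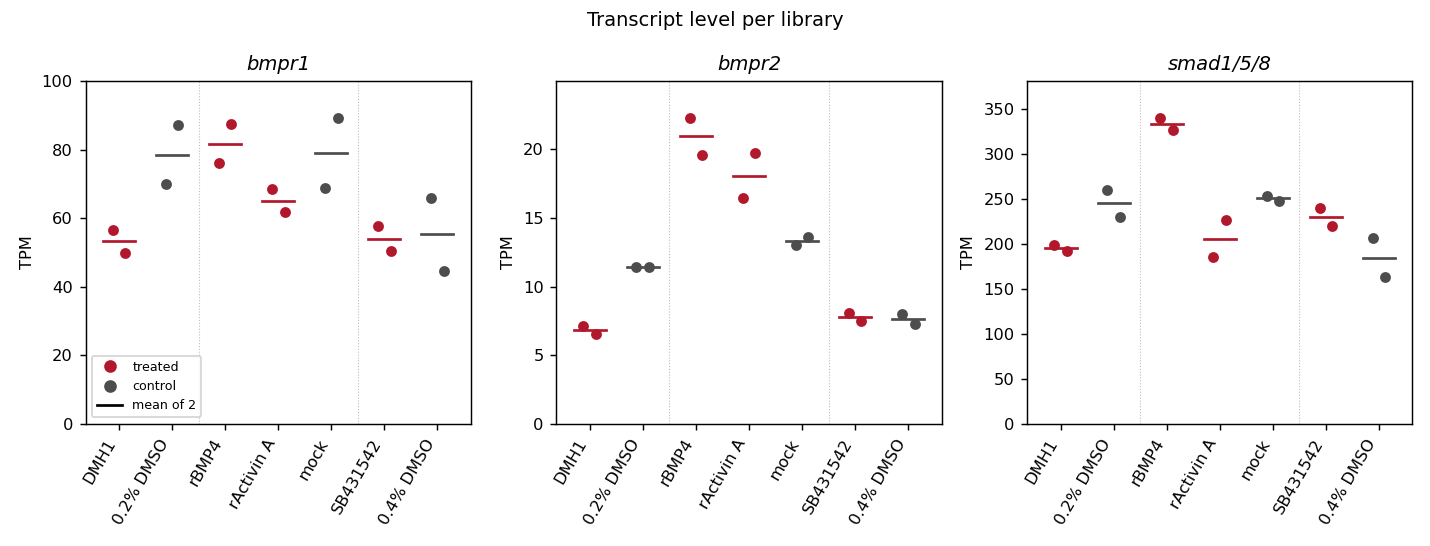
TPM (linear axis from 0) of *bmpr1*, *bmpr2* and *smad1/5/8* in each library, by condition. Points are libraries, red for treated and grey for control embryos, and bars are means of 2. The type II receptor *bmpr2* had the widest range, 3.41-fold between its lowest and highest library, against 2-fold for *bmpr1* and 2.09-fold for *smad1/5/8*.

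TPM also shifted between conditions for most transcripts at once. The median log2 ratio of TPM over transcripts with a mean of at least 5 TPM was −0.23 for DMH1 against 0.2% DMSO, −0.20 for 0.4% DMSO against 0.2% DMSO and 0.15 for mock against 0.4% DMSO. It stayed within 0.08 of 0 in the other comparisons of 2 conditions. Conditions are therefore compared in CPM, counts relative to library totals scaled by the trimmed mean of M-values, which set such a common shift to about 0, and TPM serves mainly to compare genes with each other. Differences were tested with edgeR's quasi-likelihood test, with p-values adjusted over all transcripts tested, and a call is an adjusted p below 0.05. With 2 libraries against 2, an exact permutation test of a single gene cannot give a two-sided p below 0.333 and was not used.

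The type II receptor *bmpr2* separated the conditions most clearly, with the highest levels after either ligand. With rBMP4 it reached 103 and 90.2 CPM, against 61.9 and 62.9 CPM in mock. Both rBMP4 libraries lay above both mock libraries, and the difference was 1.56-fold (log2 fold change 0.64 ± 0.0859 SE, adjusted p = 0.00884). It was the only call among the 3 genes in this comparison, in which 1.08% of 23432 transcripts were called. The call was lost without mock replicate 1 (adjusted p = 0.113), mock replicate 2 (0.0888) or rBMP4 replicate 1 (0.0795), with log2 fold changes between 0.53 and 0.64.

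With rActivin A, *bmpr2* had 84.0 and 88.5 CPM, against the same mock libraries. The groups did not overlap, and the difference was 1.38-fold (log2 fold change 0.46 ± 0.0865 SE, adjusted p = 0.00551). It was again the only call among the 3 genes, but here 29.3% of all transcripts were called, and 59% of transcripts had a larger absolute fold change. This call held without any single library, with adjusted p between 0.0166 and 0.0370. The ligands did not differ past the threshold: rActivin A against rBMP4 gave a log2 fold change of −0.18 (95% interval −0.38 to 0.02, adjusted p = 0.154).

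DMH1 libraries held the lowest *bmpr2* levels of the series, 38.4 and 37.1 CPM, against 54.4 and 52.8 CPM in 0.2% DMSO. Again the groups did not overlap, but the difference did not pass (log2 fold change −0.52 ± 0.106 SE, adjusted p = 0.0661). None of the 3 genes was called in this comparison, in which 2.69% of 23345 transcripts were. It passed when all 14 libraries were fitted together (adjusted p = 0.00425) and with DESeq2 (0.0026). With counts summed per gene, which leaves the counts of *bmpr2* itself unchanged, the difference passed as well (0.0341). It also passed without 0.2% DMSO replicate 1 (0.0414) or replicate 2 (0.0395), and moved to 0.422 without DMH1 replicate 1 and to 0.448 without DMH1 replicate 2.

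Inhibition of Activin/Nodal receptors gave no such difference for *bmpr2*. SB431542 libraries had 41.9 and 41.6 CPM, against 41.1 and 40.5 CPM in 0.4% DMSO. The log2 fold change was 0.04, with a 95% interval of −0.17 to 0.24 (adjusted p = 1). None of the 3 genes was called with SB431542, in a comparison that called 0.555% of 23432 transcripts.

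**Figure D2:**
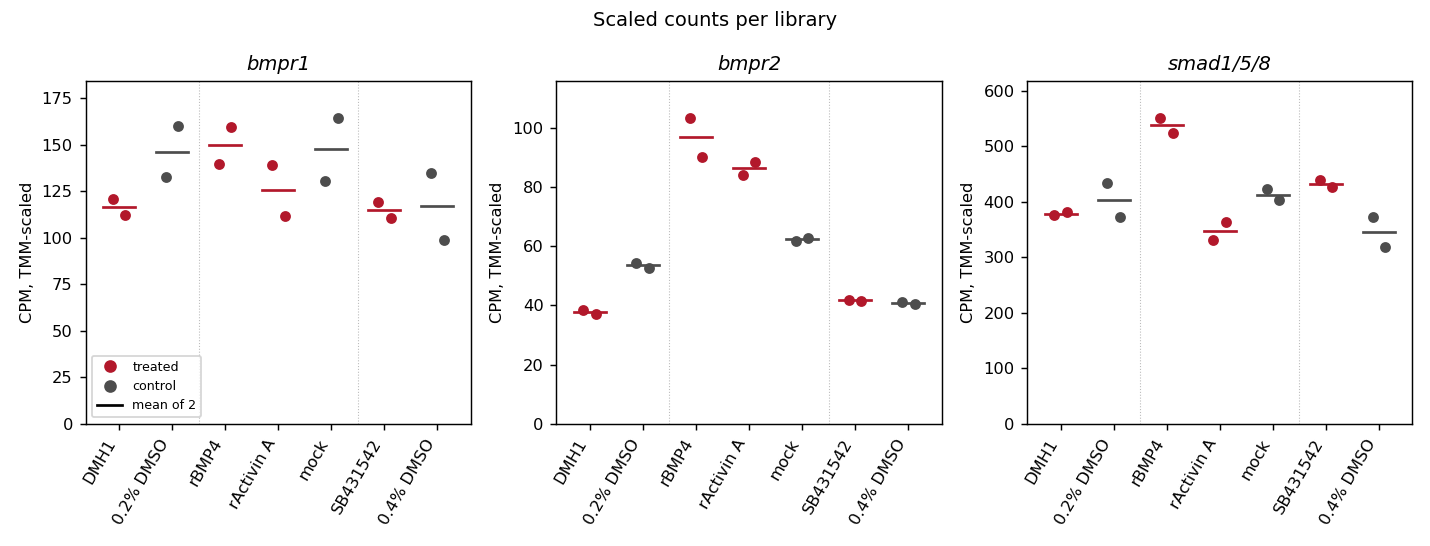
CPM scaled by the trimmed mean of M-values (linear axis from 0) of each gene in each library, by condition. Points are libraries, red for treated and grey for control embryos, and bars are means of 2. For *bmpr2* the 4 ligand libraries, from 84.0 to 103 CPM, lie above all 10 others.

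The type I receptor *bmpr1* was not called in any of the 11 comparisons, and its replicates were widely spread in several conditions. The 2 libraries of 0.4% DMSO had 135 and 99.0 CPM, a ratio of 1.36, although the counting error of each was at most 2.54%. The replicate ratio was 1.26 in mock, 1.24 in rActivin A and 1.21 in 0.2% DMSO. In TPM, its coefficient of variation in mock and in 0.4% DMSO exceeded that of 88.3% and 91.5% of transcripts of at least 5 TPM, but with rActivin A it exceeded that of only 34.5%. With rBMP4 the replicate ratio in CPM was 1.14 for *bmpr1* and 1.15 for *bmpr2*.

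With DMH1, *bmpr1* had 121 and 112 CPM, against 132 and 160 CPM in 0.2% DMSO. Both DMH1 libraries were lower, by a log2 fold change of −0.34 (± 0.127 SE, adjusted p = 0.176). Without 0.2% DMSO replicate 1 the log2 fold change was −0.48 and passed (adjusted p = 0.038), and without 0.2% DMSO replicate 2 it was −0.20 (adjusted p = 0.237).

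With rBMP4, *bmpr1* had 140 and 160 CPM, against 130 and 165 CPM in mock. The rBMP4 values fell inside the mock range, and the interval of the log2 fold change, −0.38 to 0.44, was wide. With rActivin A it had 139 and 112 CPM, which overlapped mock (log2 fold change −0.23, adjusted p = 0.364). With SB431542 it had 119 and 111 CPM, inside the range of 0.4% DMSO (log2 fold change −0.02, 95% interval −0.44 to 0.39).

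The effector *smad1/5/8* was highest after rBMP4, and the ligands differed from each other in this gene more than in the receptors. With rBMP4 it had 552 and 524 CPM, against 423 and 403 CPM in mock. Both rBMP4 libraries exceeded every other library of the series. The difference, a log2 fold change of 0.39 (± 0.0920 SE), did not pass in edgeR (adjusted p = 0.142), and 30.3% of transcripts had a larger absolute fold change. It was called on counts summed per gene (adjusted p = 0.0268) and by DESeq2 (adjusted p = 0.00173). No other transcript of *smad1/5/8* was listed, so summing left its own counts unchanged. That fit tested 20463 genes in place of 23432 transcripts.

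With rActivin A, *smad1/5/8* had 331 and 363 CPM, below both mock libraries. The log2 fold change was −0.26 (± 0.0923 SE, adjusted p = 0.0686), and it too passed on counts summed per gene (0.036) and with DESeq2 (0.0229). Set directly against rBMP4, rActivin A gave a log2 fold change of −0.65 (± 0.0926 SE, adjusted p = 0.00203), or 0.639 times the rBMP4 level. This was the only call among the 3 genes between the ligands, where 27.5% of transcripts were called. It held without any single library, with log2 fold changes between −0.70 and −0.60 and adjusted p at most 0.0172.

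Neither inhibitor gave a call for *smad1/5/8*. DMH1 libraries had 376 and 382 CPM, which fell inside the range of 433 and 373 CPM in 0.2% DMSO (log2 fold change −0.10, 95% interval −0.37 to 0.17, adjusted p = 0.598). SB431542 libraries had 439 and 426 CPM, above both 0.4% DMSO libraries at 373 and 318 CPM. The log2 fold change was 0.33 and did not pass (adjusted p = 0.309).

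**Figure D3:**
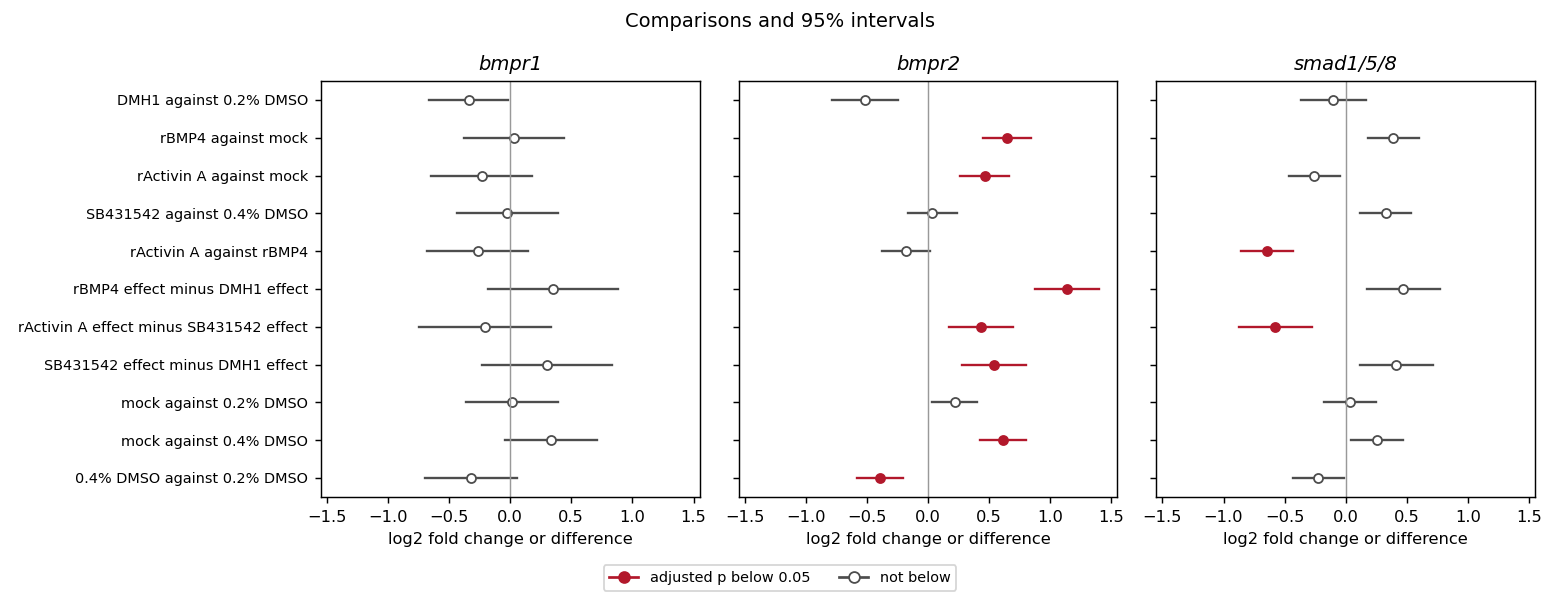
Log2 fold changes, or differences of log2 fold changes, on the horizontal axis for the 11 comparisons on the vertical axis, with 95% intervals. Filled red points had an adjusted p below 0.05 and open grey points did not. The *bmpr2* panel holds 7 calls, the *smad1/5/8* panel 2 and the *bmpr1* panel none. The comparisons share libraries, and each called between 0.555% and 30.5% of all transcripts tested.

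The effects of treatments with opposite actions were then compared directly. For *bmpr2*, the rBMP4 effect exceeded the DMH1 effect by 1.14 on the log2 scale (± 0.118 SE, adjusted p = 0.00143), and it ranked 25 by p among 24859 transcripts. This was the only call among the 3 genes, where 4.46% of transcripts were called, and it held under every alternative and without any single library (lowest difference 1.04). The same difference was 0.47 for *smad1/5/8* (adjusted p = 0.0761) and 0.35 for *bmpr1* (adjusted p = 0.46).

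The rActivin A effect exceeded the SB431542 effect for *bmpr2* by 0.43 (± 0.120 SE, adjusted p = 0.0432) and lay below it for *smad1/5/8* by a difference of −0.58 (± 0.136 SE, adjusted p = 0.0234). Here 11% of transcripts were called. The *bmpr2* call was lost whenever any single library was left out, with adjusted p between 0.0601 and 0.133, although the difference stayed between 0.40 and 0.45. The *smad1/5/8* call held only without rActivin A replicate 2 (0.0303) or 0.4% DMSO replicate 1 (0.0131), and the adjusted p lay between 0.0584 and 0.0848 without each of the other 6.

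Between the inhibitors, the SB431542 effect on *bmpr2* exceeded the DMH1 effect by 0.54 (± 0.120 SE, adjusted p = 0.0384). It was the only call among the 3 genes, with 3.76% of transcripts called. The call held without either 0.2% DMSO library and was lost without any of the other 6, with adjusted p up to 0.147.

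The 3 control groups were not alike for *bmpr2*, and the largest difference between them (log2 fold change 0.61) was close in size to that of rBMP4 against mock (0.64). Mock libraries, at 61.9 and 62.9 CPM, were higher than 0.4% DMSO libraries, at 41.1 and 40.5 CPM, by 1.53-fold (log2 fold change 0.61 ± 0.0848 SE, adjusted p = 0.000461). This call held without any single library. It was the only call among the 3 genes, but 30.5% of 24859 transcripts were called between these controls. Solvent and treatment window differ between them and cannot be told apart.

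The 0.4% DMSO libraries were in turn lower in *bmpr2* than 0.2% DMSO libraries, by a log2 fold change of −0.39 (± 0.0849 SE, adjusted p = 0.0139), with 13.8% of transcripts called. This call was lost without 0.4% DMSO replicate 2 (adjusted p = 0.089) and when only those 4 libraries were fitted (0.157). Mock against 0.2% DMSO, which share the window from 4 to 6 hpf, gave 0.22 (adjusted p = 0.0899), and none of the 3 genes was called where 22.2% of transcripts were. The other genes followed with smaller differences that did not pass: for mock against 0.4% DMSO, *bmpr1* gave 0.33 (adjusted p = 0.172) and *smad1/5/8* 0.26 (adjusted p = 0.0641). The *bmpr2* levels with SB431542 (41.9 and 41.6 CPM) thus lay nearer to those with DMH1 (38.4 and 37.1 CPM) than to those of mock or 0.2% DMSO, while SB431542 did not pass against its own control.

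Ratios of genes within a library do not depend on the scaling of libraries. The TPM of *bmpr1* was 3.41 and 4.47 times that of *bmpr2* with rBMP4, and 4.16 and 3.14 times with rActivin A, against 5.29 and 6.58 times in mock. All 4 ligand libraries were therefore below the other 10, in which the ratio lay between 5.29 and 8.22. With DMH1 it was 7.92 and 7.63, above both values of 0.2% DMSO (6.13 and 7.61), by a narrow margin.

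The ratio of *smad1/5/8* to *bmpr2* ordered the conditions more finely. It was 15.3 and 16.7 with rBMP4 and 11.2 and 11.5 with rActivin A, against 18.3 and 19.5 in mock. None of these 3 groups overlapped. It was 28.0 and 29.4 with DMH1, against 20.1 and 22.8 in 0.2% DMSO, and 29.3 and 29.8 with SB431542, against 22.4 and 25.7 in 0.4% DMSO. The ratio thus lay above the control with both inhibitors and below it with both ligands, but not through the same gene each time. In log2 fold change, *bmpr2* gave −0.52 with DMH1 and 0.04 with SB431542, where *smad1/5/8* gave −0.10 and 0.33. With the ligands *bmpr2* gave 0.64 (rBMP4) and 0.46 (rActivin A), where *smad1/5/8* gave 0.39 and −0.26. Of these values, only those of *bmpr2* with the ligands were called. The ratio of *smad1/5/8* to *bmpr1* was 4.48 and 3.73 with rBMP4, against 3.68 and 2.78 in mock, and 4.16 and 4.37 with SB431542, against 3.13 and 3.64 in 0.4% DMSO. These groups did not overlap, while those of DMH1 and rActivin A overlapped their controls. None of these ratios was tested.

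**Figure D4:**
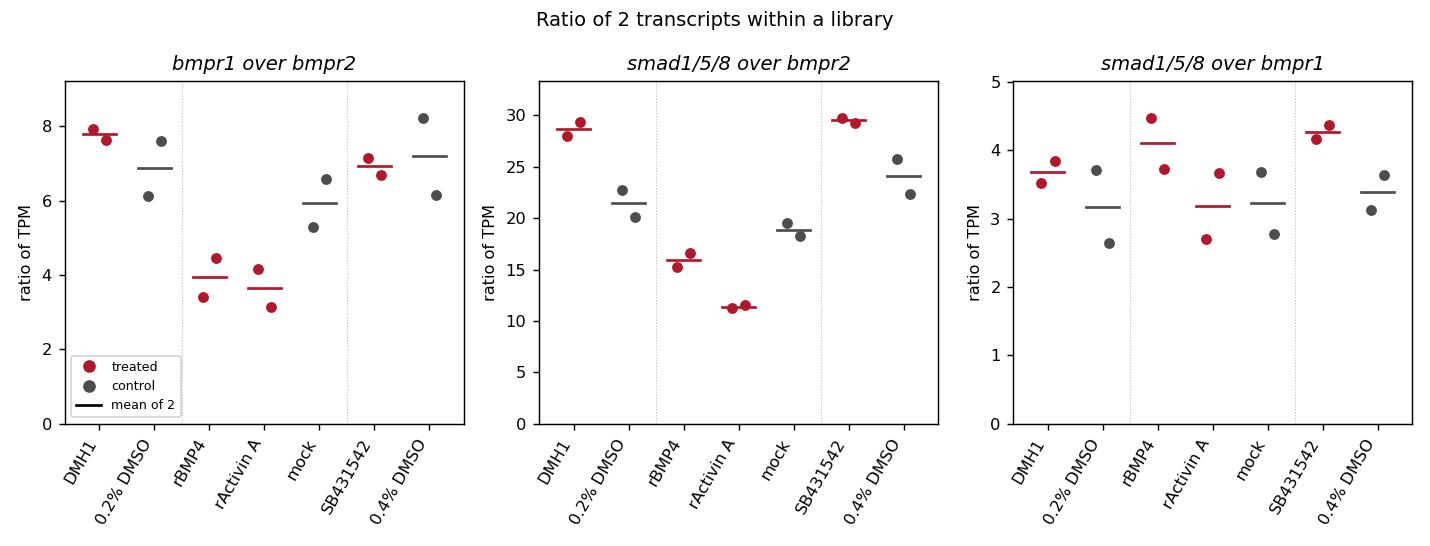
Ratio of the TPM of 2 genes within each library (linear axis from 0), by condition. Points are libraries, red for treated and grey for control embryos, and bars are means of 2. The 4 ligand libraries are lowest in both ratios to *bmpr2*, at 3.14 to 4.47 for *bmpr1* and 11.2 to 16.7 for *smad1/5/8*.

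The remaining pathway genes with identifiers were the ligands *bmp2/4* (OFUSG12159.1) and *bmp5-8* (OFUSG23310.1) and the secreted antagonist *chordin* (OFUSG13105.1), which binds BMP ligands outside the cell. With rBMP4, 2 of these 3 were called, both lower, where 0.585% of all transcripts were called lower: *bmp2/4* by a log2 fold change of −2.02 and *chordin* by −1.15. With rActivin A all 3 were called lower, beside 15.9% of all transcripts, at −1.32 for *bmp2/4*, −0.34 for *bmp5-8* and −2.03 for *chordin*. None was called with DMH1 or SB431542. The receptor *bmpr2* was thus higher than in mock in the same ligand libraries in which *bmp2/4* and *chordin* were lower. Mock was itself called higher in *chordin* than 0.2% DMSO (log2 fold change 0.86) and 0.4% DMSO (0.70), where 22.2% and 30.5% of transcripts were called. It was also called higher in *bmp5-8* (0.57 and 0.30) but not in *bmp2/4* (−0.03 and 0.01). With rBMP4 *chordin* averaged 406 CPM, against 903 CPM in mock, 497 CPM in 0.2% DMSO and 556 CPM in 0.4% DMSO. The median log2 fold change of the receptor and effector genes was 0.39 with rBMP4 and −0.23 with rActivin A, beside 0.00 and −0.04 over all transcripts tested, so with rActivin A their median does not follow *bmpr2*. A median of 3 is the value of a single gene, here *smad1/5/8* with rBMP4 and *bmpr1* with rActivin A. Neither value was called.

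The profiles of the 3 genes over the 14 libraries were compared with each other. The measure was the root-mean-square (RMS) difference of centred log2 CPM, in which 0 would mean the same profile. It was 0.235 between *bmpr1* and *smad1/5/8*, and 4.42% of 24858 transcripts were nearer to *bmpr1*. It was 0.438 between *bmpr1* and *bmpr2* (29% nearer to *bmpr1*) and 0.453 between *bmpr2* and *smad1/5/8* (10.7% nearer to *bmpr2*). Among the pathway genes the smallest difference was 0.195, between *smad1/5/8* and *bmp5-8*, with 0.78% of transcripts nearer to *smad1/5/8*. The profiles of *bmpr1* and *smad1/5/8* themselves varied little over the libraries (SD 0.214 and 0.215), so a flat profile would lie at about the same distance, whereas that of *bmpr2* had an SD of 0.5.

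The transcripts nearest to each gene carry no name in the sources used here. For *bmpr2* these were OFUSG09213.1 (0.117) and OFUSG26546.1 (0.159), far below the median of 0.812 over all transcripts. For *bmpr1* they were OFUSG11101.1 (0.0963) and OFUSG20873.1 (0.0992), and for *smad1/5/8* OFUSG10001.1 (0.133) and OFUSG08016.1 (0.135), with medians of 0.658 and 0.657 over all transcripts. These transcripts were chosen for their likeness over the same libraries, so their own fold changes are not given as results.

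**Figure D5:**
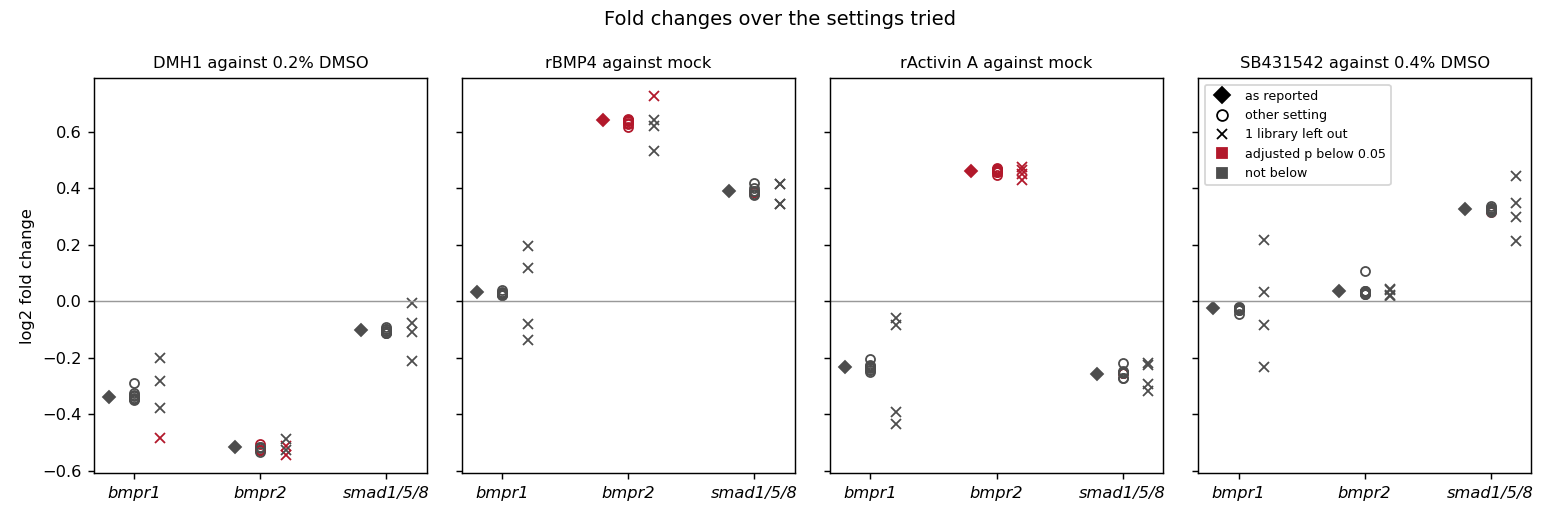
Log2 fold change of each gene in the 4 comparisons of a treatment with its control. Diamonds are the values reported, circles other settings and crosses fits with 1 library left out, and red marks an adjusted p below 0.05. The *bmpr2* values keep close together, from 0.53 to 0.73 with rBMP4 when a library is left out, whereas those of *bmpr1* spread from −0.14 to 0.20.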

How the data were processed

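Bulk RNA-seq of whole *O. fusiformis* blastulae was analysed in 14 libraries. The authors trimmed reads with FastP and quantified them with kallisto 0.46.2, and the deposited files give estimated counts and TPM per transcript with effective lengths. The libraries were strand-specific, and the strand setting used for quantification is not given here. All estimated counts of the 3 genes were whole numbers, and others were rounded. edgeR 4.0.16 (R 4.3.3, limma 3.58.1) was used with filterByExpr, TMM scaling and the quasi-likelihood test, without a replicate block, and Benjamini-Hochberg adjustment over all transcripts tested. DMH1 was fitted with 0.2% DMSO alone, the ligand and SB431542 comparisons together with their controls, and differences between effects or controls over all 14 libraries. Effect differences used interaction contrasts. For some of the comparisons the fits were checked on simulated data, with planted changes larger than any found for the 3 genes. The check therefore does not bear on calls of the size reported. Alternatives were DESeq2 1.42.0, its size factors in edgeR, no filter, effective-length offsets, counts summed per gene, thinning to the smallest library, other sets of libraries, a replicate block and leaving out each library. No other transcript of the 3 genes was listed, so summing per gene left their own counts unchanged.

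The genes named are the 3 members, the 3 other pathway genes that the study pairs with identifiers, and the 2 transcripts nearest to each member in RMS difference of log2 CPM (prior count 2). Members and lists were chosen with earlier results of these data known. Median replicate coefficients of variation were 5.68% to 11.4% over transcripts of at least 5 TPM, and no pair of libraries was treated as duplicate. No sequences or coordinates were used.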

Additional observations from a re-analysis of the deposited data

Results flagged for a closer look

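Effects of 2 treatments differed past the threshold in 5 cases, each by edgeR's test of the difference itself. For *bmpr2* the rBMP4 effect exceeded the DMH1 effect by 1.14 on the log2 scale (adjusted p = 0.00143), with both rBMP4 libraries above mock and both DMH1 libraries below 0.2% DMSO. The rActivin A effect on *bmpr2* exceeded the SB431542 effect by 0.43 (adjusted p = 0.0432), and the SB431542 effect exceeded the DMH1 effect by 0.54 (adjusted p = 0.0384). For *smad1/5/8* the rActivin A effect lay below the SB431542 effect, with a difference of −0.58 (adjusted p = 0.0234). rActivin A against rBMP4, which share the mock libraries, gave −0.65 for *smad1/5/8* (adjusted p = 0.00203). The depth ratio of 2.638 between DMH1 and 0.2% DMSO libraries and that of 0.536 between rActivin A and mock libraries go with these differences. On libraries thinned to the smallest depth 4 of the 5 were still called, and the difference between rActivin A and SB431542 effects on *bmpr2* was not (0.36, adjusted p = 0.103).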

How the results depend on the processing

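Of 33 log2 fold changes (3 genes in 11 comparisons), 9 passed the threshold. Over all transcripts tested, the share that passed ran from 0.555% (SB431542 against 0.4% DMSO) to 30.5% (mock against 0.4% DMSO). The comparisons share libraries, so the 9 calls are not independent of each other. None of these 9 changed sign under any alternative, and over all 435 alternative values 376 kept their direction and their side of the threshold. Below, log2 fold changes or differences are given in the units of the report, and causes were not tested.

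Passing only under an alternative were *bmpr2* for DMH1 against 0.2% DMSO (−0.53 with DESeq2, −0.53 on counts summed per gene, −0.51 with all 14 libraries) and *smad1/5/8* in several comparisons. With DESeq2, *smad1/5/8* passed for rBMP4 against mock (0.39), rActivin A against mock (−0.26), SB431542 against 0.4% DMSO (0.32), mock against 0.4% DMSO (0.27), the rBMP4 minus DMH1 effect (0.49) and the SB431542 minus DMH1 effect (0.41). On counts summed per gene it passed for rBMP4 (0.39), rActivin A (−0.26), mock against 0.4% DMSO (0.28) and the rBMP4 minus DMH1 effect (0.52), which also passed on thinned libraries (0.55). No longer passing were the rActivin A minus SB431542 effect on *bmpr2* without a filter (0.42) and on thinned libraries (0.36), and 0.4% DMSO against 0.2% DMSO for *bmpr2* when only those libraries were fitted (−0.41). The sign of 2 small differences turned: mock against 0.2% DMSO for *bmpr1* (−0.0081 per gene, −0.0194 with only those libraries, −0.015 thinned) and for *smad1/5/8* (−0.0171 thinned). In CPM in place of TPM, the highest over the lowest condition mean was 1.301 for *bmpr1* (1.54 in TPM) and 2.56 for *bmpr2* (3.06 in TPM).

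Leaving out 1 library at a time gave these ranges where a call or sign changed. For *bmpr1* they were −0.48 to −0.20 with DMH1, −0.14 to 0.20 with rBMP4, −0.23 to 0.22 with SB431542 and −0.16 to 0.17 for mock against 0.2% DMSO. For *bmpr2* they were −0.54 to −0.49 with DMH1, 0.53 to 0.73 with rBMP4, 0.40 to 0.45 for the rActivin A minus SB431542 effect, 0.51 to 0.56 for the SB431542 minus DMH1 effect and −0.41 to −0.37 for 0.4% DMSO against 0.2% DMSO. For *smad1/5/8* they were 0.36 to 0.57 for the rBMP4 minus DMH1 effect, −0.70 to −0.47 for the rActivin A minus SB431542 effect, −0.065 to 0.15 for mock against 0.2% DMSO and 0.15 to 0.38 for mock against 0.4% DMSO. A lone remaining library is assumed to vary like the others of the fit.

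Deviations of same-numbered libraries correlated between −0.018 and 0.056 over 21 pairs of conditions. Taken over all transcripts, these values show no strong common pairing. They cannot show whether same-numbered libraries shared a culture or batch, because counting noise enters every transcript. With a replicate block the effects on *bmpr2* of rActivin A minus SB431542 (0.43, adjusted p = 0.0563) and SB431542 minus DMH1 (0.54, adjusted p = 0.0552) no longer passed, and no other call among the 3 genes changed. The block left 0 transcripts called by edgeR with DMH1 (5018 at an unadjusted p below 0.05), against 627 without it and 3767 with DESeq2.

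Counts of called transcripts moved widely, which bears on every adjusted p. Over alternatives other than leaving out a library they lay between 0 and 3810 for DMH1 (627 as reported), 162 and 540 for rBMP4 (254), 51 and 415 for SB431542 (130), 4246 and 8357 for rActivin A (6856) and 3811 and 7925 for rActivin A against rBMP4 (6449). They lay between 764 and 2507 for the rBMP4 minus DMH1 effect (1108), 549 and 2422 for the SB431542 minus DMH1 effect (935), 3084 and 6795 for mock against 0.2% DMSO (5511) and 117 and 4726 for 0.4% DMSO against 0.2% DMSO (3428). With 2 libraries a condition, spread is estimated mostly from other transcripts. For *bmpr2* the replicates' lower counting error was 2.5% in mock, 2.83% in 0.2% DMSO, 3.44% in 0.4% DMSO and 3.3% with SB431542. Their CPM varied less (coefficients of variation 1.19%, 2.2%, 1.11% and 0.517%), so this closeness is not a measure of precision.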
